A study of Mus musculus with 5 samples.

Results

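Lone NELF-A peaks are the NELF-A ChIP-seq peaks of primary mouse mammary epithelial cells that overlapped, by 1 bp or more, no peak of RNA polymerase II (RNAPII), of NELF-B or of R-loops (DRIP-seq). They numbered 4254 of the 10782 peaks in the NELF-A list, or 39.5% (95% Wilson interval 38.5 to 40.4%). The share was 12.8% among NELF-A peaks scoring above the median of their list, and 62.4% when the other 3 lists were restricted to scores above their own medians. They were chosen by the measured positions of the peaks in all 4 lists, so every value that follows from the lack of overlap is a description and carries no test. The other 6528 NELF-A peaks fell into 7 further classes, by which of the other 3 targets they overlapped. The largest were 2356 peaks on RNAPII with no NELF-B or DRIP and 2157 on RNAPII and NELF-B. Another 521 overlapped NELF-B with no RNAPII or DRIP, and 110 overlapped DRIP alone.

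NELF, the negative elongation factor, is a protein complex that keeps RNAPII paused soon after transcription has begun. NELF-A is a subunit that contacts the polymerase, and NELF-B, also known as COBRA1, is a further subunit of the complex that binds the tumour suppressor BRCA1. R-loops are stretches where nascent RNA pairs with its DNA template and leaves the opposite DNA strand unpaired.

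The study mapped NELF-A with an antibody made in the laboratory, NELF-B likewise, and RNAPII and R-loops with commercial antibodies. All cells came from the thoracic and inguinal glands of virgin mice 6 to 8 weeks old of mixed strain, and the labels give no genotype. The NELF libraries were made from 0.2 ng of DNA with 18 PCR cycles, against 1 ng and 15 cycles for RNAPII, and 15 cycles were also used for DRIP. A further DRIP sample treated with RNase H was not analysed here. Each target had 1 deposited list; the RNAPII and DRIP lists stand for 2 libraries each, by their titles, and no list had a replicate list. The lists name no genes, so defining markers of mammary cells could not be looked up, and the sequencing depth behind them is unknown. With 1 list per target no p-value was computed, and intervals cover counting error alone. Whether a lone peak would recur in a second NELF-A library was not tested.

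Lone peaks were weak and narrow beside the pooled rest of their list, and close to the NELF-A peaks with DRIP only. The authors give each peak a whole-number score of no stated unit, compared here only within a list. Sums of scores and scores per 250 bp treat the score as additive, which was not tested. Lone peaks had scores of 9 to 121 with a median of 15 (order-statistic 95% interval 14 to 15), against a median of 35 (34 to 36) for the other NELF-A peaks, which reached 3128. The 110 NELF-A peaks with DRIP only had a median score of 14 (13 to 17) and, like the lone peaks, a median width of 750 bp. The middle 50% of the lone peaks lay between 10 and 21, and 90% of them scored 28 or less. They held 39.5% of the peaks and 30.3% of the length covered by NELF-A, but 20.6% of the summed score.

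Many lone peaks sat at the floor of the list. No NELF-A peak scored under 9, and 886 lone peaks (20.8%) had exactly that score, against 246 (3.77%) of the other NELF-A peaks. A score above 30 was found for 326 lone peaks (7.66%) and for 3858 of the others (59.1%). Above 50 there were 12 lone peaks and 1691 others, and above 100 a single lone peak and 258 others. Of the 108 NELF-A peaks in the top 1% by score per 250 bp, 1 was a lone peak.

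The share of NELF-A peaks that lay alone was lower in each higher class of score. Among the 1132 NELF-A peaks of score 9, 78.3% (75.8 to 80.6%) were alone. The share was 60.7% (58.0 to 63.3%) at scores 16 to 20, 27.8% (25.03 to 30.7%) at 26 to 30, 6.83% (5.42 to 8.57%) at 41 to 50 and 0.827% (0.436 to 1.57%) at 51 to 75. In the same classes the share of NELF-A peaks on RNAPII was 18.4%, 31.5%, 59.5%, 89.3% and 97.2%, in that order. Weak NELF-A peaks were thus mostly alone and strong ones mostly on the polymerase, and since overlap with RNAPII chose the lone peaks, this is a description of the list. The RNAPII, NELF-B and DRIP lists have floors of their own, at scores of 104, 7 and 38.

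**Figure D1:**
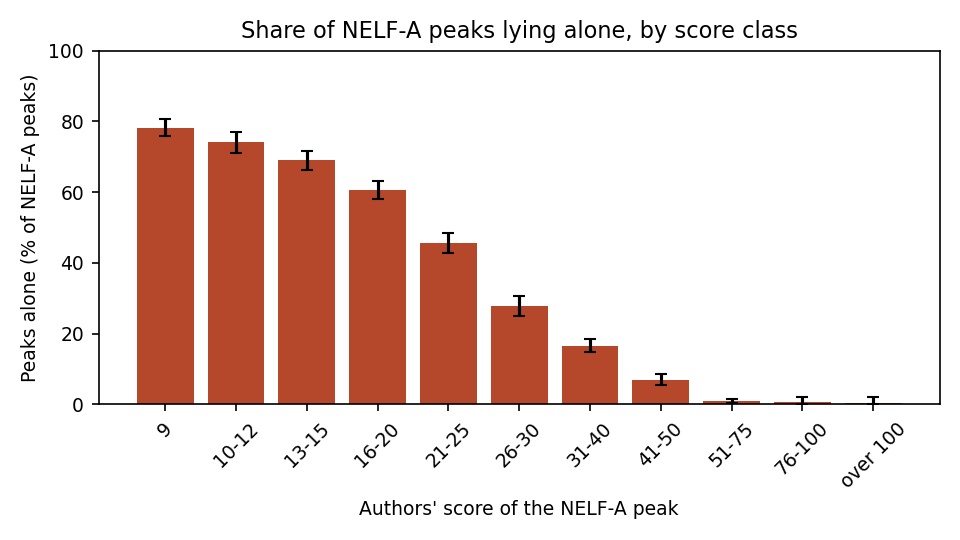
Share of NELF-A peaks that overlapped no RNAPII, NELF-B or DRIP peak (vertical axis, %) in 11 classes of the authors' NELF-A score (horizontal axis); bars are shares and error bars 95% Wilson intervals. The share stands at 78.3% for score 9 and at 0.386% above a score of 100.

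The presence of NELF-B also followed the NELF-A score, on and off the polymerase. Off RNAPII, NELF-B was listed at 1.52% (0.905 to 2.53%) of NELF-A peaks of score 9, and on RNAPII at 2.40% (1.03 to 5.50%). At scores of 13 to 15 it was listed at 5.69% (4.36 to 7.41%) off RNAPII and 5.44% (3.38 to 8.66%) on RNAPII. These intervals overlap. At 16 to 20 the shares were 10.03% (8.23 to 12.2%) off RNAPII and 20.6% (16.99 to 24.8%) on RNAPII, while at 21 to 25 and at 26 to 30 the intervals overlapped again. At 31 to 40, 30.5% (25.95 to 35.4%) of the peaks off RNAPII held NELF-B, against 47.7% (44.8 to 50.6%) of those on RNAPII. At 41 to 50 these shares were 34.6% (26.2 to 43.98%) and 65.5% (62.3 to 68.5%). At the lowest NELF-A scores NELF-B was thus rarely listed on or off RNAPII, and at scores of 31 to 50 it was listed less often off RNAPII. Overlap with both lists chose the lone peaks, so this is a description. Peaks of 1 list are not replicates, and width was not matched within the classes. Above 50 the peaks off RNAPII were too few to compare, with 30 at scores of 51 to 75.

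Peaks in these lists start and end on a 250 bp grid, and lone peaks took up few steps of it. Of the lone peaks, 1655 (38.9%) were 500 bp wide, 1446 (33.99%) were 750 bp, 764 (17.96%) were 1000 bp and 10 were 250 bp. The median was 750 bp, against 1000 bp for the other NELF-A peaks. Widths of 1250 bp and over were found for 379 lone peaks (8.91%), against 2743 others (42.02%). At 2000 bp and over there were 11 lone peaks, against 331 others (5.07%). Read by width, 73.6% (71.8 to 75.4%) of all NELF-A peaks of 500 bp were alone, 53.2% (51.4 to 55.1%) of those of 750 bp, 28.5% (26.9 to 30.3%) of those of 1000 bp and 8.46% (6.72 to 10.6%) of those of 1500 bp. A wide peak has more room to overlap another list, so width and the lack of overlap are not independent.

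At widths of 500 to 1000 bp lone peaks scored lower than NELF-A peaks with NELF-B only or RNAPII only. At 500 bp, where the list begins at a score of 9, the medians were 9 (9 to 9) for lone peaks, 11 (10 to 13) for those with NELF-B only and 10 (10 to 10) for those with RNAPII only. At 750 bp the medians were 15 (15 to 16), 19 (18 to 21) and 19 (18 to 20) in the same order, over 1446, 154 and 626 peaks. At 1000 bp they were 22 (22 to 23), 28 (26 to 29) and 28 (27 to 29), over 764, 184 and 721 peaks. At 1250 bp the medians were 30 (29 to 31), 34 (30 to 36) and 37 (36 to 38). At 500, 750 and 1000 bp the interval of the lone peaks lay under those of both other classes. At 1250 bp it overlapped that of the peaks with NELF-B only. The NELF-A peaks with DRIP only had medians close to the lone peaks, with 9 (9 to 10) at 500 bp, 14 (14 to 19) at 750 bp and 24 (20 to 27) at 1000 bp, over 41, 33 and 21 peaks. The lowest score present in the list rises with width, with 13 at 750 bp, 17 at 1000 bp and 21 at 1250 bp, and the lower quartiles of the lone peaks at these widths were 14, 19 and 25.

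**Figure D2:**
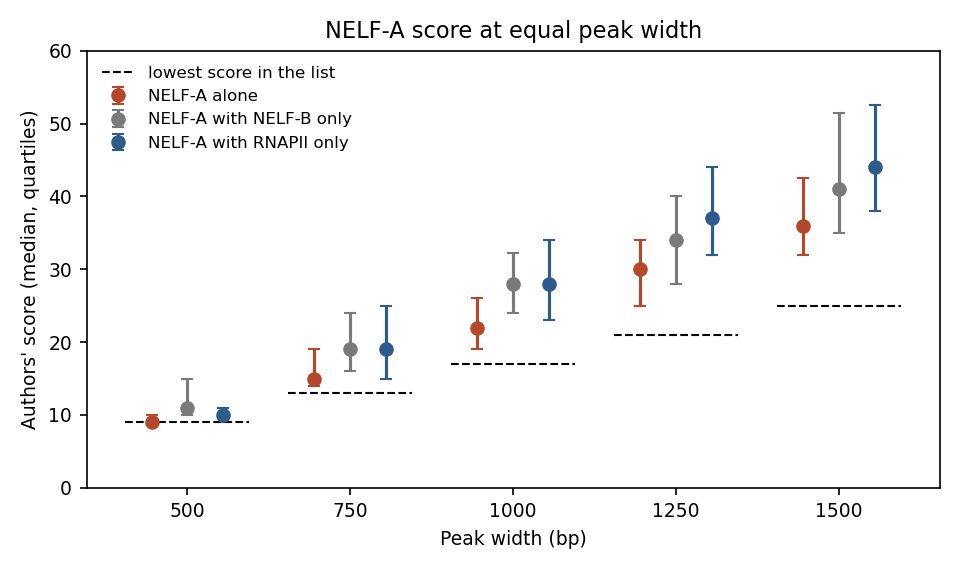
Authors' NELF-A score (vertical axis) at peak widths of 500 to 1500 bp (horizontal axis) for lone NELF-A peaks, NELF-A peaks with NELF-B only and NELF-A peaks with RNAPII only; points are medians, bars run from the lower to the upper quartile, and dashed lines mark the lowest score of the list at that width. At 1000 bp the lone peaks had a median of 22, against 28 in each of the other classes.

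A few lone peaks stood far above the rest. The highest, of 1250 bp at chr2:72313501-72314750 in mm9, scored 121, which is rank 155 in the NELF-A list, and had 24.2 per 250 bp. It lay 501.8 kb from the nearest RNAPII peak, 73 kb from the nearest DRIP peak and 189.2 kb from the nearest other NELF-A peak, itself a lone peak of score 14. It was the lone peak in the top 1% by score per 250 bp. The second, at chr17:4994001-4997250, was the widest lone peak, with 3250 bp and a score of 92, and the nearest RNAPII peak was 85 kb away. The third, at chr5:138628001-138629250, scored 89 over 1250 bp and lay 5.75 kb from an RNAPII peak of 750 bp that held NELF-A.

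The next lone peaks by score were at chr13:21271251-21273250 with 63, and at chr7:105963501-105965250, chr7:135019001-135020750 and chr11:108781251-108782500 with 57 each. The remaining 3 of the 10 highest were at chr7:109414751-109417000 with 56, chr15:10399501-10401000 with 55 and chr8:18845751-18847000 with 53. Of these 10 peaks, 1 lay within 10 kb of RNAPII, 6 between 10 and 100 kb and 3 beyond 100 kb. The highest scores were thus found both near RNAPII and far from it. Lone peaks of 2000 bp numbered 9, and those with the highest scores fill the places among the 5 widest after the peaks of 3250 and 2250 bp. Besides 3 of the 10 above, the 5 widest included chr11:51670251-51672250, with 2000 bp and a score of 52, which touched another lone peak, and chr1:179371501-179373500, with 2000 bp and a score of 46.

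Most lone peaks lay well away from the polymerase. The median gap to the nearest RNAPII peak was 54.75 kb (52.5 to 58.25 kb), with quartiles of 20.25 and 141.1 kb. With the other 3 lists restricted to scores above their medians, which leaves fewer RNAPII peaks and more lone ones, the median gap was 115.2 kb. Of the lone peaks, 123 (2.89%) had an RNAPII peak within 1 kb, 483 (11.4%) between 1 and 10 kb, 2221 (52.2%) between 10 and 100 kb and 1427 (33.5%) at 100 kb or more. At 122 (2.87%) the gap was 1 Mb or more. The class of 10 to 100 kb was thus the fullest, and few lone peaks bordered an RNAPII peak. Neither trait was particular to lone peaks. Of the 6528 other NELF-A peaks, 47.5% had the nearest RNAPII peak that they did not overlap at 10 to 100 kb. Such a peak was touched by 46 of them, and an RNAPII peak by 35 lone peaks.

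The NELF-A peaks with NELF-B only had nearly the same distances. Their median gap to RNAPII was 55 kb (47.5 to 65.75 kb), 14.2% (13.2 to 15.3%) of lone peaks and 11.9% (9.40 to 14.96%) of theirs had RNAPII within 10 kb, and 33.5% (32.1 to 34.98%) against 33.0% (29.1 to 37.2%) had none within 100 kb. These intervals overlap, which does not show that the classes lie alike. The lone peaks were farther out than the NELF-A peaks with DRIP only, whose median was 21.9 kb (9.25 to 36.25 kb) over 110 peaks. For the 5838 NELF-A peaks on RNAPII, the nearest RNAPII peak that they did not overlap was 38.75 kb away (36.5 to 41.5 kb), and 25.4% (24.3 to 26.6%) had such a peak within 10 kb. By class, this median gap ran from 19.75 kb with RNAPII and DRIP to 47.75 kb (44.5 to 53.25 kb) with RNAPII and NELF-B. The latter interval overlaps that of the lone peaks. Gaps to the other targets were longer, with medians of 65.6 kb (62.25 to 70.5 kb) from lone peaks to DRIP and 90.1 kb (83.75 to 95 kb) to NELF-B, whose list is the shortest with 3925 peaks.

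**Figure D3:**
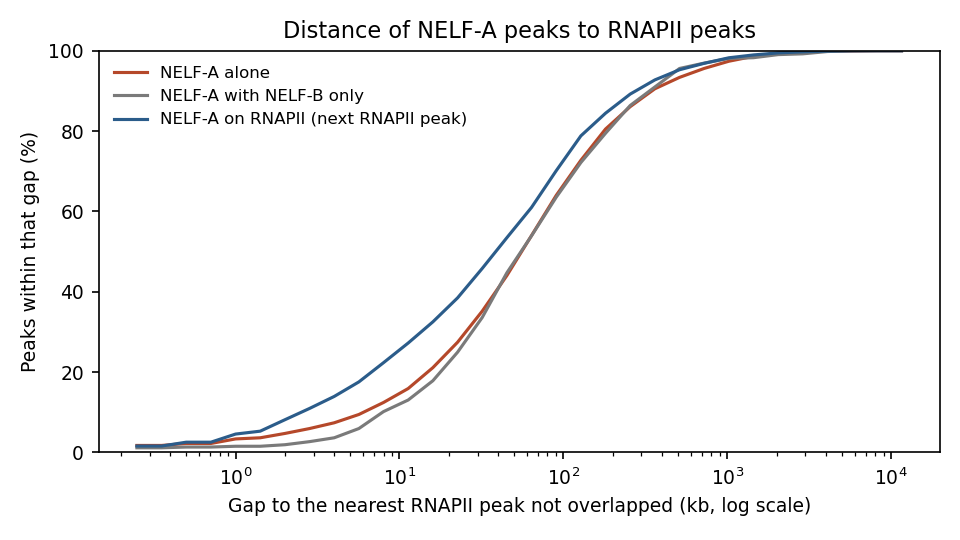
Cumulative share of NELF-A peaks (vertical axis, %) by the gap to the nearest RNAPII peak that they do not overlap (horizontal axis, kb, log scale) for lone NELF-A peaks, NELF-A peaks with NELF-B only and NELF-A peaks on RNAPII. The curves of the lone peaks and of those with NELF-B only meet at their medians of 54.75 and 55 kb, and that of the peaks on RNAPII lies above both between 1 and 100 kb.

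Lone peaks close to RNAPII were the weakest. A wide peak close to RNAPII has more room to overlap it and so not count as alone. Score rose with width, with a Spearman's rho of 0.89 across lone peaks, so these values are a description. The 35 lone peaks that touched an RNAPII peak had a median score of 10 and were mostly narrow, at a median of 500 bp. Of these 35, 48.6% had the lowest score of 9. Between 1 and 3 kb the 130 lone peaks had a median score of 13, and 30% of them scored 9. At 10 to 100 kb the 2221 lone peaks had a median of 15, and 19.5% of them scored 9. Read the other way, RNAPII lay within 10 kb of 19.98% (17.5 to 22.7%) of lone peaks of score 9, of 12.6% (10.5 to 15.1%) of those of 16 to 20 and of 9.24% (6.51 to 12.95%) of those of 31 to 50. Over all lone peaks the relation was weak, with a Spearman's rho of 0.08 across 4254 peaks of score with distance, and peaks of 1 library are not independent.

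At the edge of the rule, peaks just inside and just outside had similar scores and widths. The 88 lone peaks that touched a peak of another list without overlapping it had a median score of 11 and a median width of 500 bp; 35 of them touched RNAPII, 42 DRIP and 12 NELF-B, and a peak may count for more than 1 of these. The 70 lone peaks with a gap of 250 bp had a median score of 12.5. Just outside, the 183 NELF-A peaks whose largest overlap was a single grid step of 250 bp had a median score of 13 and a median width of 500 bp. With an overlap of 500 bp the 1576 peaks had a median score of 21.

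The RNAPII peaks nearest to lone peaks more often held NELF-A than RNAPII peaks in general. Lone peaks had 2569 different RNAPII peaks as their nearest, of 7718 in the list. Of these, 86.3% (84.95 to 87.6%) overlapped NELF-A, 45.1% (43.2 to 47.0%) NELF-B and 17.2% (15.8 to 18.7%) DRIP. The other 5149 RNAPII peaks overlapped them at 65.4% (64.04 to 66.6%), 34.8% (33.5 to 36.1%) and 24.7% (23.5 to 25.9%). Over all 7718 RNAPII peaks the shares were 72.3%, 38.2% and 22.2%, in the same order. Counted once per NELF-A peak, the nearest RNAPII peak held NELF-A for 87.2% (86.1 to 88.1%) of lone peaks and for 89.3% (86.3 to 91.6%) of NELF-A peaks with NELF-B only, and these intervals overlap. An RNAPII peak of 750 bp at chr10:80846751-80847500, which held NELF-A and NELF-B and no DRIP, was nearest to 15 lone peaks, more than any other.

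The nearest other NELF-A peak was closer than the nearest RNAPII peak, in a list that is also longer. Its median distance from a lone peak was 26.25 kb (24.5 to 27.75 kb), against 26 kb (24.75 to 27.25 kb) for the other NELF-A peaks and 30 kb (27 to 35 kb) for those with NELF-B only. Restricted to NELF-A peaks scoring above the median of their list, which leaves fewer neighbours, it was 58 kb for lone peaks. The nearest other NELF-A peak lay within 1 kb for 288 lone peaks (6.77%), against 11.6% of the other NELF-A peaks. Among those others the share was 3.84% (2.50 to 5.86%) with NELF-B only and 33.6% (25.5 to 42.9%) with DRIP only. It lay within 10 kb for 27.0% (25.7 to 28.4%) of lone peaks, against 19.6% (16.4 to 23.2%) of those with NELF-B only. Among lone peaks it lay between 1 and 10 kb for 861 (20.2%) and at 100 kb or more for 757 (17.8%). Lone peaks that touched another NELF-A peak numbered 74 (1.74%), against 273 (4.18%) of the other NELF-A peaks. Of the 521 with NELF-B only, 9 touched another NELF-A peak, and of the 110 with DRIP only, 14 did.

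Lone peaks had other lone peaks as neighbours more often than the rest of the list did. The nearest NELF-A peak was itself alone for 46.0% (44.5 to 47.5%) of lone peaks, against 33.6% (32.5 to 34.8%) of the other NELF-A peaks and 40.7% (36.6 to 44.96%) of those with NELF-B only, whose interval overlaps that of the lone peaks. For 2032 lone peaks (47.8%) the neighbour was on RNAPII, at a median distance of 31.25 kb, and for 1956 (46.0%) it was another lone peak, at 21 kb. Beside a neighbour on RNAPII the lone peak was the weaker of the pair in 87.0% of cases, with median scores of 14 and 37. Beside another lone peak the scores were even, at medians of 15 and 14.

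Most lone peaks stayed single when joined to each other over short gaps, and no such count is given for the other classes. Joined over gaps of up to 5 kb, 3807 of them (89.5%) stayed single, 392 lay in 196 pairs, 51 in 17 groups of 3 and 4 in a group of 4. That group spanned chr10:79446251-79452000, with scores of 9 to 39 and its nearest RNAPII peak 63.75 kb away. Among the groups of 3, the highest summed scores were 65 at chr19:5566501-5569250, 57 at chr12:112078751-112089250, 53 at chr11:68935501-68940000 and 49 at chr8:108375501-108385000.

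Chromosomes 1 to 19 and X were used, and all 20 held lone peaks. Their share of the NELF-A list ran between 32.2% (27.5 to 37.3%) on chromosome 16 and 48.8% (42.5 to 55.03%) on the X chromosome. On chromosome 15 it was 45.1% (40.6 to 49.6%) and on chromosome 14 34.6% (29.8 to 39.6%). The largest counts were 379 on chromosome 11 and 360 on chromosome 2. Chromosomes rich in RNAPII peaks were also rich in lone NELF-A peaks. Chromosome 11 had 3.20 lone peaks and 6.16 RNAPII peaks per Mb, chromosome 19 had 2.86 and 4.33, and the X chromosome 0.722 and 0.887. Spearman's rho of both densities was 0.79 across 20 chromosomes, which share 1 list per target, and is given as a description. The median score of the lone peaks kept between 14 and 16 on every chromosome, and their median width was 750 bp on each.

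**Figure D4:**
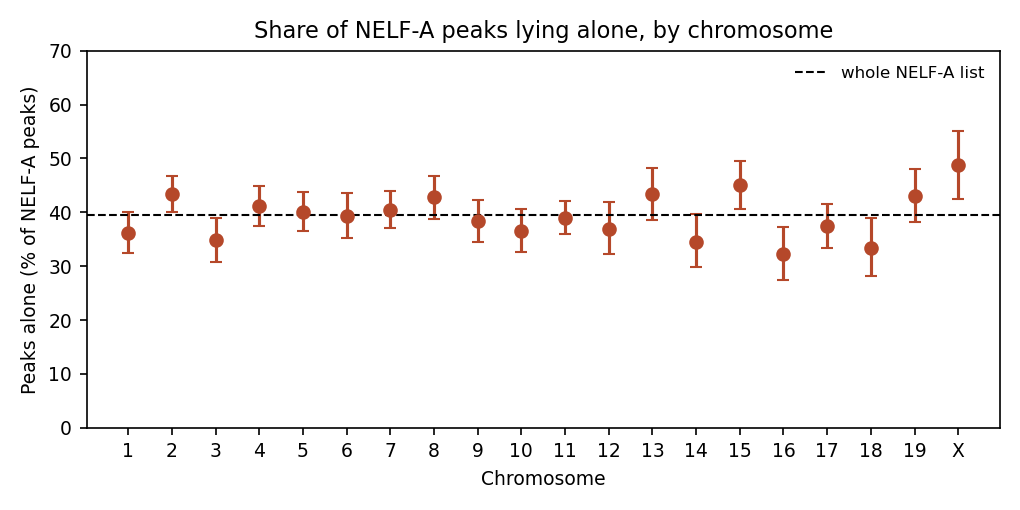
Share of NELF-A peaks lying alone (vertical axis, %) on each chromosome (horizontal axis), with 95% Wilson intervals; the dashed line marks the share over the whole list, 39.5%. The X chromosome has the highest share, 48.8%, and chromosome 16 the lowest, 32.2%.

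The X chromosome held few lone peaks, and they lay far from RNAPII. There were 118 of them on 242 NELF-A peaks (48.8%), against 4136 on 10540 (39.2%, 38.3 to 40.2%) on the autosomes. For every 100 RNAPII peaks there were 81.4 lone NELF-A peaks on the X chromosome and 54.6 on the autosomes, while NELF-A peaks on RNAPII numbered 75.9 and 75.6. The median distance to RNAPII was 150.6 kb (102.8 to 274.5 kb) on the X chromosome, against 54.25 kb (51.25 to 56.75 kb) on the autosomes, and 19 of 118 (16.1%) lay 1 Mb or more away, against 103 (2.49%). The X chromosome also had the fewest RNAPII peaks per Mb of all chromosomes, 0.887. No such distance is given for its other NELF-A peaks, so whether this is particular to lone peaks was not tested. The NELF-A peaks of the X chromosome were weaker: 31.4% (25.9 to 37.5%) of them scored above 24, the median of the list, against 50.1% (49.2 to 51.1%) on the autosomes. Above that score 3 of 76 NELF-A peaks of the X chromosome were alone (3.95%, 1.35 to 10.97%), against 12.97% (12.1 to 13.9%) on the autosomes, and at or under it 69.3% (61.9 to 75.8%), against 65.7% (64.4 to 66.9%). The higher share on the X chromosome was thus not found above that score, and at or under it the intervals overlap.

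The most remote lone peaks were mostly on the X chromosome, where RNAPII peaks were sparsest. Of the 5 farthest from RNAPII, 4 lay there, led by chrX:83021501-83022250 at 7980 kb and chrX:82819001-82819750 at 7777 kb, with scores of 14 and 21. These 2 were each other's nearest NELF-A peak, 201.8 kb apart. They were followed by chrX:110298751-110299250 at 5997 kb with a score of 10 and chrX:126284001-126284750 at 4835 kb with a score of 17. The fifth, chr8:18845751-18847000 at 3956 kb, was also among the 10 highest by score. Isolation from other NELF-A peaks was greatest for the same chrX:126284001-126284750, at 4309 kb, ahead of chrX:78315751-78316500 at 3274 kb and chrX:23269751-23270750 at 2630 kb. Next came chr4:65266001-65266500 at 2046 kb and chr3:159502251-159502750 at 1802 kb, with scores of 10 and 9.

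Counted in windows of 1 Mb, lone peaks accompanied RNAPII peaks more loosely than the NELF-A peaks on RNAPII did, as the rule provides. They occurred in 1374 of 2586 windows (53.1%). The mean number per window was 0.342 where no RNAPII peak lay, 1.04 with 1 RNAPII peak, 1.63 with 2 to 3, 2.53 with 4 to 6, 3.72 with 7 to 10 and 5.91 with 11 to 35. Windows with no RNAPII peak made up 39.1% of all and held 346 lone peaks (8.13%). Spearman's rho with RNAPII peaks across windows was 0.64 for lone peaks and 0.96 for NELF-A peaks on RNAPII, and that of lone peaks with DRIP peaks was 0.54. Windows share the libraries, so these values are descriptions. The fullest window, on chromosome 15 between 76 and 77 Mb, held 22 lone peaks beside 13 RNAPII peaks. On chromosome 10, the window between 79 and 80 Mb held 21 and that between 80 and 81 Mb held 18, beside 21 and 27 RNAPII peaks.

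**Figure D5:**
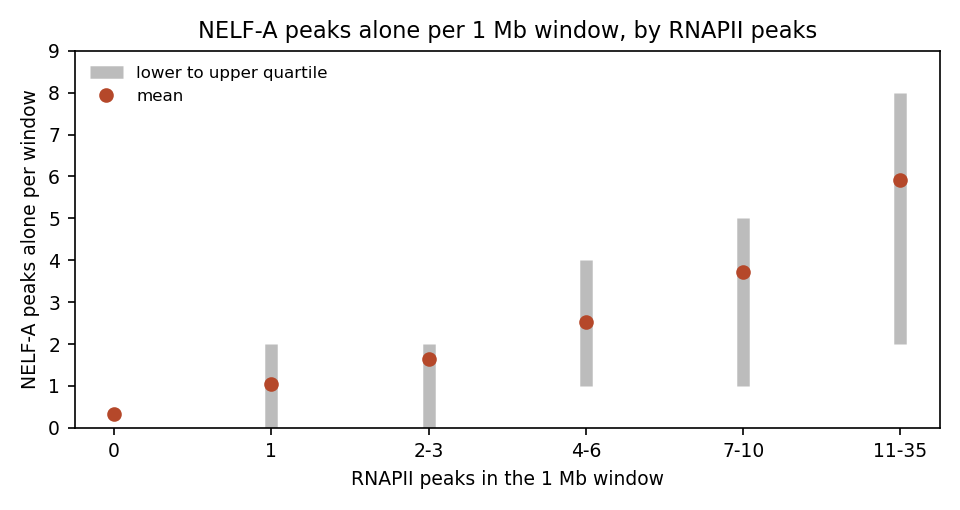
Number of lone NELF-A peaks per 1 Mb window (vertical axis) by the number of RNAPII peaks in the window (horizontal axis, 6 classes); points are means and bars run from the lower to the upper quartile of windows. The mean stands at 0.342 in windows with no RNAPII peak and at 5.91 in those with 11 to 35.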

How the data were processed

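The authors deposited 1 peak list each for NELF-A, NELF-B, RNAPII and DRIP. The submitters' processing notes name BWA and the mm9 build. How peaks were found, at what threshold and against which background is not stated in these sources. The deposited lists hold chromosome, first and last base and a whole-number score whose unit is not stated. Peaks on chromosomes 1 to 19 and X were used, and any on other sequences were left out before counting.

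Overlaps (1 bp or more), gaps between peak edges and quantiles were computed in Python 3.11.15 with numpy 2.4.6, pandas 2.3.3 and scipy 1.17.1, and the functions were checked on peaks made with known answers. Touching peaks were kept as deposited and have a gap of 0. Shares carry 95% Wilson intervals and medians 95% binomial order-statistic intervals. Depth is unknown. The members, classes and settings were chosen with earlier results of these data known. Named regions are the 10 highest-score, 5 widest, 5 farthest from RNAPII, 5 farthest from another NELF-A peak and 5 groups with most members, with ties broken by score; regions on chromosome 18 were kept out of these lists by rule. RNAPII peaks and windows named beside them were chosen after their values were seen. Coordinates were kept in mm9, while the gene tables at hand are of GRCm38, so genes and sequences were not analysed here.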

Additional observations from a re-analysis of the deposited data

How the results depend on the processing

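Of the 7 alternatives, requiring 50% of the shorter peak, joining touching peaks and leaving out the X chromosome moved none of the results beyond its 95% interval; the last gives no share for the X chromosome itself. Counting gaps of up to 1000 bp as shared lowered the share of lone peaks to 37.0% and raised the median distance to RNAPII to 58.9 kb. Setting every peak to 500 bp raised the share to 44.9% and lowered the median distances to 45.7 kb for RNAPII and 23.9 kb for other NELF-A peaks. Among NELF-A peaks scoring above the median of their list, 12.8% were alone and 3.95% on the X chromosome; the median score was 30, the median width 1000 bp, the share at the lowest remaining score 14.1%, and the median distances 62.25 kb to RNAPII and 58 kb to other NELF-A peaks. With the other 3 lists restricted to scores above their medians instead, 62.4% of NELF-A peaks were alone and 71.1% on the X chromosome, with a median score of 18, 14.5% at the lowest score and a median distance to RNAPII of 115.2 kb. These restrictions leave fewer peaks by construction, and the share of lone peaks moved with the score threshold of the lists. Leaving out a replicate was not possible with a single list for each target. No paired analysis was possible because each group has 1 list and no result comes from a test.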
